A study of Mus musculus with 6 samples.

Results

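The genes described here are 38 focal adhesion, filamin and LIM protein genes, chosen by name from a list of adaptor proteins. Differences in expression were not part of the rule, but the list was chosen with earlier results of these data known. Of the 38, 37 were measured, out of 22182 genes tested on the arrays. Ptk2, which encodes focal adhesion kinase, matched no probe set through the annotation used and was not analysed here. Ilk was read only through probe sets that name Taf10 or Rrp8 as well, and Lims2 only through a probe set that also names Gpr17, so their values belong to both genes of each probe set. Where a gene had several probe sets, the brightest over the 6 arrays stood for it.

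RNA was profiled in primary vascular smooth muscle cells (VSMCs) from the aorta, with 3 arrays from old and 3 from young mice. Old mice were 58 to 78 weeks of age and young mice were 12 weeks. Every mouse was a male C57BL/6, and no group was treated. The cells were commercial primary cultures from 2 suppliers, each with its own medium, kept to 3 passages at most. No source used here ties a supplier to an array, so supplier and age cannot be told apart. Whether each array stands for another mouse is not stated in the labels, and the p-values therefore rest on a spread between samples that may be technical. In such bulk RNA, fewer cells of a type and less RNA per cell cannot be told apart.

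Focal adhesions are the plaques through which integrins, the matrix receptors of the cell, are joined to actin stress fibres. Talin and kindlin switch integrins on, vinculin and the complex of ILK, PINCH and parvin tie them to actin, and tyrosine kinases with their docking proteins pass on the signal. Many proteins of the plaque and of the stress fibre carry LIM domains, which are zinc-binding folds that hold other proteins and, in several families, settle on actin under tension. Smooth muscle cells also hold actin in dense bodies, the counterpart of the Z-disc of striated muscle, where alpha-actinin, palladin and the PDZ and LIM proteins are found.

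Nearly all members lay in the brighter part of the arrays. Of the 37, 36 had a mean log2 signal above 5.43, the median over all probe sets, and Pdlim3 was the exception. The mean log2 signal over the members was 8.89, 8.93 and 8.83 in old replicates 1, 2 and 3, against 8.84, 9.16 and 8.76 in young replicates 1, 2 and 3. The young arrays lay further apart than the old ones, with young replicate 2 at the top and young replicate 3 at the bottom of all 6. Correlations between arrays over all probe sets ran from 0.960 to 0.986, and young replicate 3 stood furthest apart, with a mean correlation of 0.969 and the highest array median (5.58, against 5.39 to 5.45 in the others). The median signal is not a limit of detection, so a marker above it does not show that its cell type was present. All 12 smooth muscle markers were above the median signal. Endothelial markers were above it in 1 of 7 genes, leukocyte markers in 3 of 8, fibroblast markers in 3 of 6, pericyte markers in 5 of 5, epithelial and mesothelial markers in 6 of 8, Schwann cell markers in 2 of 3, adipocyte markers in 0 of 4 and striated muscle markers in 6 of 8. The mean over the leukocyte markers was highest in young replicate 3. Of these markers Cd68 was at 10.33 there, at 7.94 and 8.43 in the other young arrays and at 7.63 to 7.77 in the old arrays. Every old array was thus below every young array in Cd68. The same held for Csf1r, at 5.37 to 5.75 in old and 5.84 to 5.94 in young VSMCs. In young replicate 3 the myeloid markers Csf1r at 5.84, Lyz2 at 5.67, Itgam at 4.54 and Adgre1 at 4.52 lay within the range of the other arrays.

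Old VSMCs were set against young VSMCs to ask whether the machinery that joins the matrix to the cytoskeleton is transcribed differently with the age of the mouse. By its brightest probe set, no member differed by as much as 2-fold. The differences, old minus young on the log2 scale, ran from -0.50 in Sorbs2 to 0.35 in Fhl3, with 17 above 0 and 20 below, counts that include 10 genes near 0 whose sign depended on the scaling. Their median was -0.02, against 0.03 over all genes, and the median size of a difference was 0.14 in the members and 0.14 over all genes. At the low end were Sorbs2, Tns1, Synpo2, Csrp2 and Tln2, and at the high end were Fhl3, Vcl, Fermt2 and Lims1. Both ends held genes of plaque proteins and of LIM proteins.

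At the threshold of the study's methods (a log2 difference over 1 in size with an unadjusted limma p under 0.05) no member was higher and none was lower in old VSMCs. Over all genes tested, 0.325% were higher and 0.676% were lower at this threshold, shares at which a list of 37 genes would hold fewer than 1. At an unadjusted p under 0.05 with no limit on size, 1 member was higher (Lims1) and 3 were lower (Tns1, Sorbs2 and Synpo2), where 6.71% of all genes were higher and 4.72% lower. The 4 members together made up 10.8% of those measured and the corresponding share of all genes was 11.4%, so the count was close to the background. No member had an adjusted p under 0.05 (limma, Benjamini-Hochberg over all genes), a limit that 0.0451% of all genes passed. The lowest adjusted p among the members was 0.324, in Tns1. The old and young arrays did not overlap in Lims1, which was higher, and in Tln2, Tns1 and Synpo2, which were lower, against 11.1% of all genes higher and 6.95% lower. For 3 arrays against 3 an exact permutation test cannot go below p = 0.1.

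The fit also bounds what these arrays could have missed, though its intervals rest on the same spread between arrays as the p-values. As that spread may be technical, they do not bound a difference between old and young mice at large. For the brightest probe sets, all 37 of the 95% confidence intervals, each taken on its own, lay between -1 and 1 on the log2 scale, with the lowest limit at -0.96 in Sorbs2 and the highest at 0.88 in Fhl3. Sorbs2 was not bounded within 2-fold by its other probe sets, whose lower limits in the fit of every probe set were -1.49 for the second and slightly lower for the third. Over all genes 93.5% had such an interval. The median interval reached 0.38 to either side of the difference in the members, against 0.33 over all genes. Differences well below these widths were not detectable with 3 arrays a group.

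**Figure D1:**
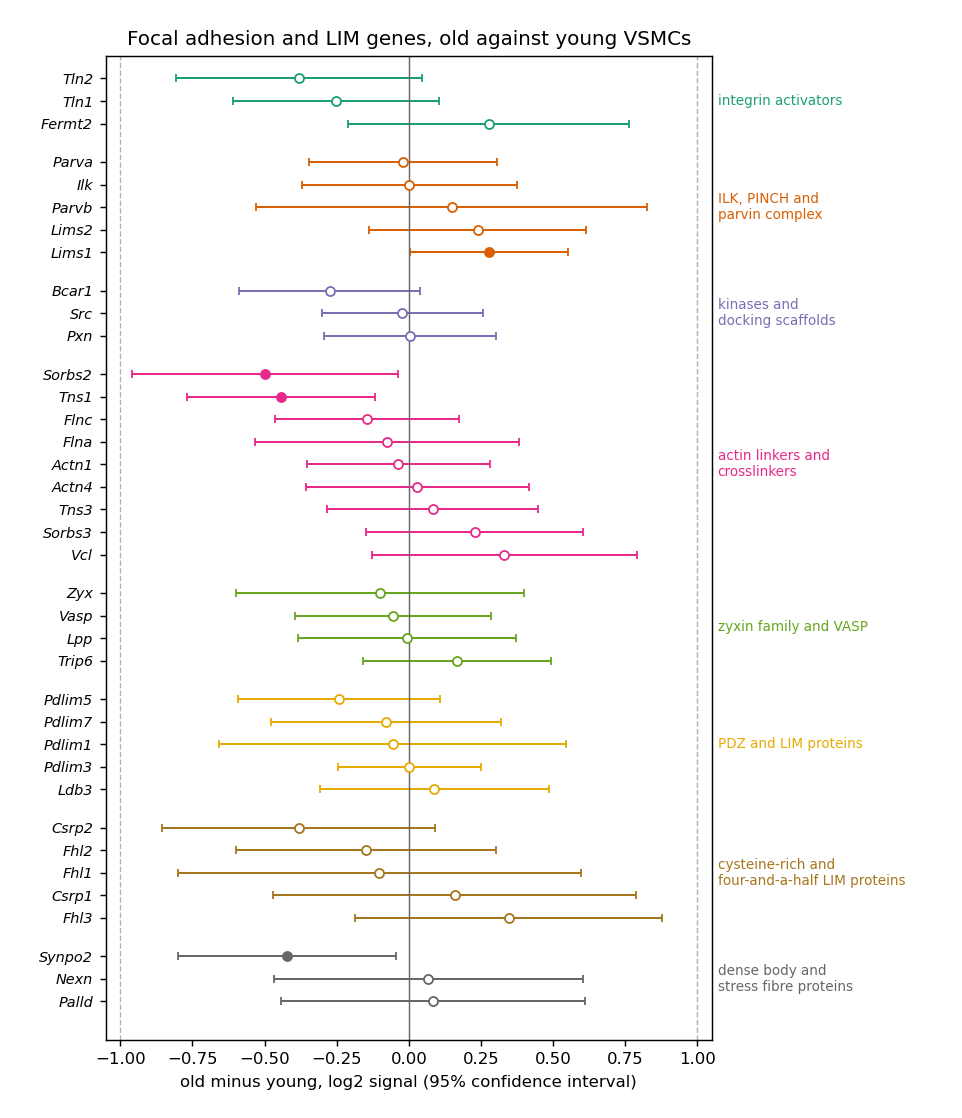
Difference between old and young VSMCs for each of the 37 measured genes, grouped by role, as old minus young log2 signal on the horizontal axis (point) with its 95% confidence interval from limma (bar). Filled points are the 4 genes with an unadjusted p under 0.05, dashed lines mark a 2-fold difference either way, and all intervals lie between the dashed lines.

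Among the integrin activators the talins were below 0 and the kindlin was above it. Tln2 had the largest difference of the group, with log2 signals of 7.80, 7.69 and 7.15 in old VSMCs and 8.09, 7.83 and 7.85 in young VSMCs. All 3 old arrays were below all 3 young arrays, and old replicate 3 was the lowest. The difference was -0.38 ± 0.18 (SE; adjusted p = 0.480, limma). It was -0.18 without old replicate 3, and -0.51 without old replicate 1, where its unadjusted p was under 0.05. Tln1, the talin found in most cells, differed by -0.25 ± 0.16, and Fermt2, the kindlin of adherent cells, by 0.28 ± 0.21.

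In the complex of ILK, PINCH and parvin, Lims1, Lims2 and Parvb were above 0, Ilk and Parva were close to 0, and the median was 0.15. Lims1 encodes a PINCH protein, an adaptor built of LIM domains that binds ILK. Its log2 signals were 8.64, 8.63 and 8.81 in old VSMCs and 8.37, 8.54 and 8.33 in young VSMCs, with no overlap between the groups. The difference was 0.28 ± 0.12 (SE), or 1.21-fold higher in old VSMCs, with adjusted p = 0.434 (limma), and its unadjusted p was no longer under 0.05 when any array other than young replicate 2 was left out. Lims2, the other PINCH gene, gave 8.37, 8.57 and 8.72 in old VSMCs and 8.40, 8.52 and 8.03 in young VSMCs, a difference of 0.24 ± 0.16 in overlapping groups. Ilk encodes the pseudokinase at the centre of the complex, and its brightest probe set was at 9.87, 9.76 and 9.76 in old VSMCs and at 9.68, 10.14 and 9.57 in young VSMCs. The old arrays lay between the young ones and the difference was 0.00 ± 0.16, while the other probe sets that name Ilk differed by -0.10 and 0.24. The parvins, which join the complex to actin, differed by -0.02 ± 0.14 (Parva) and 0.15 ± 0.29 (Parvb).

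The docking proteins and kinases were near 0 apart from Bcar1. Bcar1 encodes a Crk-associated substrate that is stretched by force and then phosphorylated by Src kinases. It was at 9.00, 8.83 and 8.71 in old VSMCs and at 9.07, 9.31 and 8.99 in young VSMCs, a difference of -0.27 ± 0.14 (SE; adjusted p = 0.491, limma). Old replicate 1 was level with young replicate 3, and the other old arrays were below every young array. Src itself differed by -0.02 ± 0.12, and paxillin (Pxn), the LIM scaffold of the plaque, by 0.00 ± 0.13.

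The actin linkers and crosslinkers spanned most of the range of the list, from Sorbs2 at -0.50 to Vcl at 0.33. Tns1 encodes tensin, which binds integrin tails and actin in elongated, matrix-bound adhesions. Its log2 signals were 11.50, 11.42 and 11.09 in old VSMCs and 11.89, 11.69 and 11.76 in young VSMCs. Every old array was below every young array, with old replicate 3 the lowest and the young arrays close together. The difference was -0.44 ± 0.14 (SE), or 1.36-fold lower in old VSMCs, with adjusted p = 0.324 (limma). Tns1 was the only member with an unadjusted p under 0.05 in the reported fit and in all 14 other fits, and without 1 array at a time the difference stayed between -0.52 and -0.32. Tns3, another tensin, differed by 0.08 ± 0.16.

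Sorbs2 encodes an adaptor with SH3 domains that lies on stress fibres and Z-discs and binds vinculin. Its brightest probe set was at 8.84, 8.75 and 8.42 in old VSMCs and at 9.54, 9.14 and 8.82 in young VSMCs, where young replicate 3 fell among the old arrays. The difference was -0.50 ± 0.20 (SE), 1.41-fold lower, with adjusted p = 0.408 (limma), and its unadjusted p stayed under 0.05 without old replicate 1 or young replicate 3 but not without any of the other 4 arrays, with differences from -0.67 (without young replicate 3) to -0.31 (without young replicate 1). The second probe set of Sorbs2 was at 6.87, 6.53 and 6.46 in old VSMCs and at 7.89, 7.21 and 7.73 in young VSMCs, without overlap and with a difference of -0.99 (95% confidence interval -1.49 to -0.49, adjusted p = 0.272 in the limma fit of every probe set). The third, which also names the antisense gene Sorbs2os, was at 5.21, 5.02 and 4.60 in old VSMCs and at 6.33, 5.59 and 5.66 in young VSMCs, a difference of -0.91 (adjusted p = 0.335). All 3 probe sets had a difference below 0, and the brightest, which stands for the gene here, gave the smallest difference of the 3. The related Sorbs3, which encodes vinexin, differed by 0.23 ± 0.16, and by 0.39 with an unadjusted p under 0.05 without old replicate 1.

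**Figure D2:**
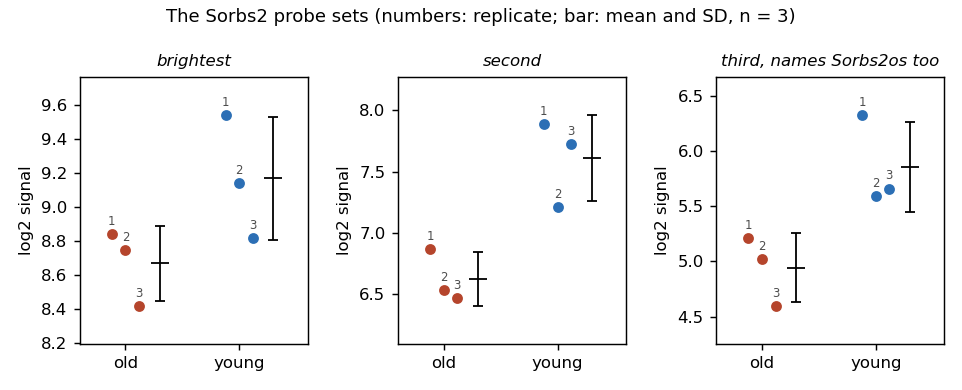
Log2 signal of the 3 Sorbs2 probe sets on each array, old VSMCs to the left of young VSMCs in each panel, with replicate numbers beside the points and the mean and SD (n = 3) as a bar. For the brightest probe set young replicate 3, at 8.82, lies between old replicates 1 and 2, and for the other 2 probe sets every old array lies below every young array.

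Vinculin (Vcl), which is recruited by stretched talin and binds actin, was named after its values were seen because it carries the pattern of the young arrays. It was at 11.33, 11.46 and 11.50 in old VSMCs and at 11.00, 11.55 and 10.74 in young VSMCs, a difference of 0.33 ± 0.20 (adjusted p = 0.562, limma). The old arrays were close together and young replicate 2 was above all of them, whereas the other young arrays were below. The crosslinkers of actin were near 0, with -0.04 ± 0.14 in Actn1, 0.03 ± 0.17 in Actn4, -0.07 ± 0.20 in Flna and -0.14 ± 0.14 in Flnc.

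The zyxin family shuttles between adhesions, stress fibres and the nucleus, and VASP extends actin filaments at sites to which zyxin brings it. The largest difference of the group was that of Trip6, a zyxin relative, at 7.49, 7.63 and 7.58 in old VSMCs and at 7.16, 7.63 and 7.41 in young VSMCs. It came to 0.17 ± 0.14 (SE; adjusted p = 0.685, limma), with young replicate 2 level with the highest old array. Zyx differed by -0.10 ± 0.22, Lpp, a zyxin relative found at high levels in smooth muscle, by -0.01 ± 0.16, and Vasp by -0.06 ± 0.15.

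The PDZ and LIM proteins bind alpha-actinin. Pdlim5 had the largest difference, with 10.55, 10.41 and 10.38 in old VSMCs and 10.49, 10.99 and 10.58 in young VSMCs. The old arrays were close together, young replicate 1 lay among them and young replicate 2 was the highest. The difference was -0.24 ± 0.15 (SE; adjusted p = 0.575, limma), and -0.09 without young replicate 2. Pdlim1, Pdlim3, Pdlim7 and Ldb3 differed by -0.06 ± 0.26, 0.00 ± 0.11, -0.08 ± 0.17 and 0.09 ± 0.17.

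Cysteine-rich proteins (Csrp1 and Csrp2) are LIM proteins that bind alpha-actinin and zyxin and, in the nucleus, act with serum response factor, while FHL proteins consist of LIM domains alone. Csrp2 was at 6.26, 6.51 and 6.19 in old VSMCs and at 6.26, 6.79 and 7.05 in young VSMCs, a difference of -0.38 ± 0.21 (SE; adjusted p = 0.525, limma). Young replicate 1 was as low as the old arrays and the other young arrays were above them all. The difference was -0.60 without young replicate 1, where its unadjusted p was under 0.05, -0.21 without young replicate 3 and -0.17 with array weights. Csrp1 differed by 0.16 ± 0.27, Fhl2 by -0.15 ± 0.20 and Fhl3 by 0.35 ± 0.23. Fhl1, named after its values were seen, was at 6.95, 7.19 and 8.21 in old VSMCs and at 7.73, 7.62 and 7.30 in young VSMCs. Old replicate 3 was the highest of the 6 and the other old arrays were the lowest, so the difference was -0.10 ± 0.30, and without old replicate 3 it was -0.48 with an unadjusted p under 0.05.

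Among the proteins of dense bodies and stress fibres, Synpo2 was the lower one. It encodes an actin-bundling protein of smooth and striated muscle, also called myopodin, and was at 5.83, 5.77 and 5.33 in old VSMCs and at 6.00, 6.25 and 5.95 in young VSMCs. The groups did not overlap, and old replicate 3 was the furthest away. The difference was -0.42 ± 0.16 (SE), 1.34-fold lower in old VSMCs, with adjusted p = 0.398 (limma), and its unadjusted p was not under 0.05 without old replicate 3, young replicate 1 or young replicate 2. It was smallest, at -0.27, without old replicate 3. Palladin (Palld), a scaffold for actin and alpha-actinin, differed by 0.08 ± 0.23 and nexilin (Nexn), an actin-binding protein, by 0.07 ± 0.23.

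**Figure D3:**
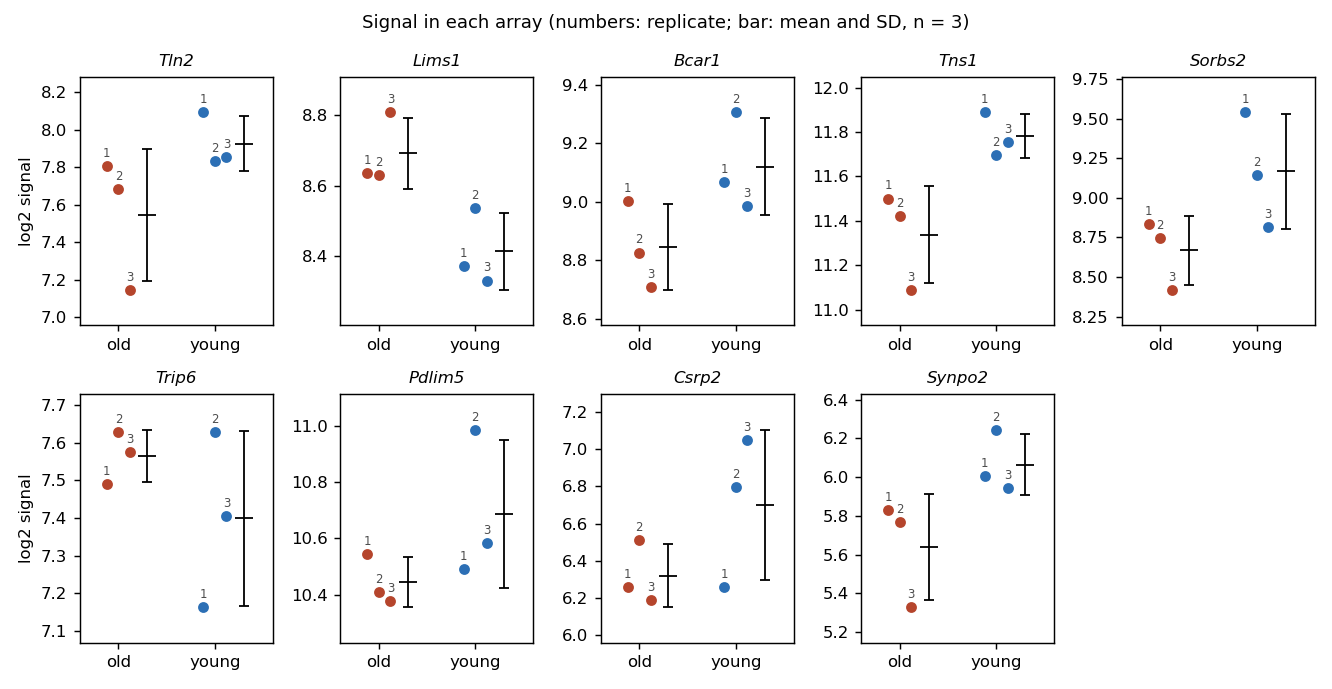
Log2 signal on each array for the 9 genes with an unadjusted limma p under 0.05 or the largest difference in their role group, with old VSMCs on the left of each panel, young VSMCs on the right, replicate numbers beside the points and the mean and SD (n = 3) as a bar. Old and young points are separate in Tln2, Lims1, Tns1 and Synpo2 and overlap in Bcar1, Sorbs2, Trip6, Pdlim5 and Csrp2.

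The split of the 4 calls depended on how the arrays were scaled. It was 1 higher and 3 lower in the values as deposited, 0 higher and 5 lower after quantile normalization (Tln2, Bcar1, Tns1, Sorbs2 and Synpo2), and 1 higher and 1 lower with each array centred on its median (Lims1 and Tns1). The median over all genes was 0.03, 0.01 and 0.11 in these scalings. Differences close to 0 changed sign with scaling, in Ilk, Pxn and Nexn after quantile normalization and in Parva, Src, Actn1, Flna, Lpp, Vasp and Pdlim1 after centring, so the signs of these 10 genes depended on the scaling.

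Most members varied more among the young arrays than between the groups, as did most genes. The range over the young arrays exceeded the difference between old and young in 32 of 37 members (86.5%, against 82.2% of all genes), and the median range was 0.30 in old and 0.50 in young VSMCs (all genes 0.26 and 0.34). Young replicate 2 was the highest of the 6 arrays in 21 members (56.8%, against 13.3% of all genes) and the lowest in none. Among the 3 young arrays alone it was the highest in 28 members (75.7%, against 33.5% of all genes). The median gap between young replicate 2 and the mean of the other young arrays was 0.34 in the members and 0.00 over all genes. The largest gaps were 1.02 in Csrp1, a 2.03-fold higher signal, 0.82 in Palld, 0.81 in Fhl3 and 0.70 in Fermt2. Next came 0.69 in Flna and in Nexn, 0.68 in Vcl and 0.63 in Zyx. The median gap was above 0 in each of the 8 role groups. It ran from 0.05 in the kinases and docking scaffolds to 0.69 in the dense body and stress fibre proteins. The gap was below 0 in 5 members, which were Tln2 at -0.14, Tns1 at -0.13, Src at -0.10, Sorbs3 at -0.08 and Sorbs2 at -0.04. These counts describe 1 array and carry no test.

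Smooth muscle markers had the same array at the top. The mean log2 signal over the 12 markers was 8.29, 8.52 and 8.31 in old VSMCs and 7.73, 8.74 and 7.48 in young VSMCs, with young replicate 2 the highest in 6 of 12 markers and young replicate 3 the lowest in 7. Acta2, the smooth muscle actin, was at 12.39, 12.62 and 12.49 in old VSMCs and at 11.68, 12.82 and 11.37 in young VSMCs. The median gap between young replicate 2 and the other young arrays was 1.06 over these markers. At the threshold of the methods, Cnn1 (calponin, 1.81 ± 0.77 SE, adjusted p = 0.430, limma) and Itga8 (an integrin subunit of contractile smooth muscle, 1.27 ± 0.50, adjusted p = 0.405) were higher in old VSMCs. Cnn1 was at 8.02, 8.90 and 8.54 in old VSMCs and at 5.88, 8.76 and 5.38 in young VSMCs, so young replicate 2 lay within the old range. The other 10 were not called, at 0.54 in Acta2, 0.11 in Tagln, -0.17 in Myh11, 0.56 in Myl9, -0.08 in Smtn, 0.21 in Lmod1, 0.00 in Cald1, 0.19 in Des, 0.61 in Actg2 and -0.33 in Myocd. The markers moved with the members over the young arrays, and their part in the result was not tested. Of 49 markers of other cell types none was called at the threshold of the methods, and 6 had an unadjusted p under 0.05, of which 3 were higher and 3 lower in old VSMCs (12.2%, against 11.4% of all genes). The fibroblast marker Pdgfra was 1.91-fold lower in old VSMCs (-0.93 ± 0.19, adjusted p = 0.171, limma) and the mesothelial marker Msln was 1.67-fold higher (0.74 ± 0.21, adjusted p = 0.294), both without overlap between the groups. The others were Krt18 at 0.35, Dpt at 0.56, Tek at -0.58 and Cd79a at -0.41. Of the 49, 4 were higher and 5 lower in old VSMCs without overlap, against 11.1% of all genes higher and 6.95% lower. Among the lower ones were Cd68 at -1.19 ± 0.52 (adjusted p = 0.442, limma) and Csf1r at -0.30 ± 0.13 (adjusted p = 0.447). Neither had an unadjusted p under 0.05. The part of these markers in the members' differences was not tested either.

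**Figure D4:**
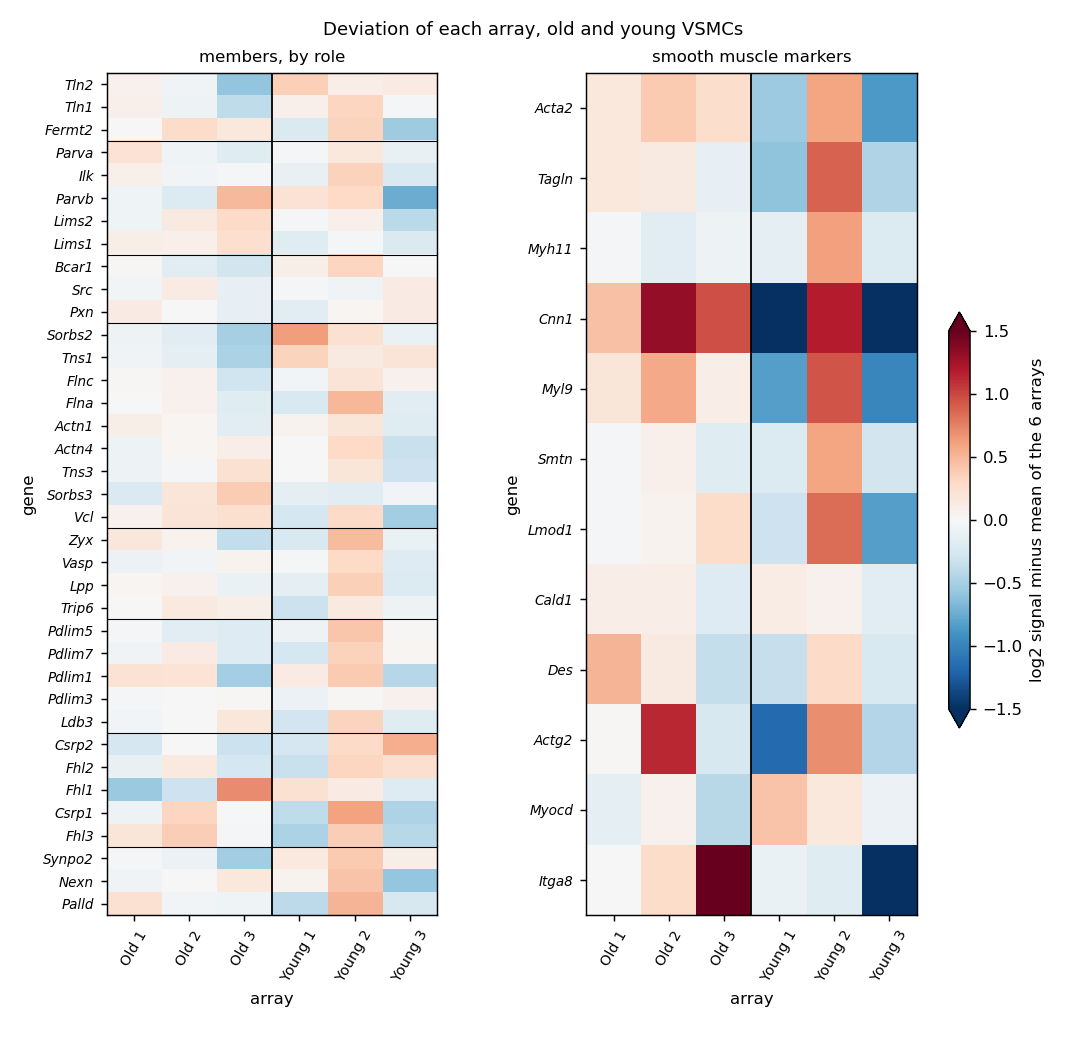
Log2 signal of each array minus the mean of the 6 arrays for the 37 measured genes (left, ordered by role, lines between role groups) and for the 12 smooth muscle markers (right), with old arrays left of young arrays and red for a signal above the mean. The column of young replicate 2 is red in most rows of both panels, and it holds the highest value in 21 of the 37 genes and in 6 of the 12 markers.

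Without young replicate 2, 6 members had an unadjusted p under 0.05 with higher signal in old VSMCs (9.14% of all genes) and 1 with lower signal (5.31% of all genes). The higher ones were Fhl3 at 0.62, Vcl at 0.56, Fermt2 at 0.51, Csrp1 at 0.50, Palld at 0.36 and Lims1 at 0.34, and the lower one was Tns1 at -0.49. The 7 members were 18.9% of those measured, against 14.4% of all genes, no adjusted p was below 0.183 (limma), and the median difference was 0.11. Without young replicate 3, which stood apart from the other arrays, no member was higher (5.03% of all genes) and 4 were lower, Bcar1, Tns1, Sorbs2 and Synpo2 (4.35% of all genes), with a median of -0.11. Young replicate 2 had the highest and young replicate 3 the lowest mean over the members, so opposite shifts of the median follow from those levels. Tns1 was the only member called in both fits.

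The promoters of the members were searched for the CArG box, the site that serum response factor binds in genes of the contractile cytoskeleton. RefSeq promoters of assembly GRCm38.p6, from 250 bases before to 50 bases after the transcription start, were found for 30 of the 37 measured members. The motif reads the same on both strands and was matched as CC, then 6 bases of A or T, then GG. It was present in 6 of the 30 members (20.0%), namely Vcl, Fermt2, Trip6, Fhl1, Fhl2 and Ldb3, and in 1.81% of 27025 genes with such promoters. More promoters were searched per member (45 for 30) than per gene of that background (32851 for 27025). The background was also not limited to genes expressed in VSMCs. The match is a description of the letters in this window, not evidence of a bound site. The promoters of the 3 members with a match and the smallest p are shown to place the box relative to the start site, with the CArG box in capitals, written 5′ to 3′ on the strand of the gene and ending 30 bases after the start.
Vcl: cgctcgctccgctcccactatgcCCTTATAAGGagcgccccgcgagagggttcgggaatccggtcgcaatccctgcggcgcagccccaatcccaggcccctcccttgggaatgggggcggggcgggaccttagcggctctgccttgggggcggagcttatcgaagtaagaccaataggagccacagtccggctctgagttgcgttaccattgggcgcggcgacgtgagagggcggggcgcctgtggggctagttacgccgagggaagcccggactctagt
Fermt2: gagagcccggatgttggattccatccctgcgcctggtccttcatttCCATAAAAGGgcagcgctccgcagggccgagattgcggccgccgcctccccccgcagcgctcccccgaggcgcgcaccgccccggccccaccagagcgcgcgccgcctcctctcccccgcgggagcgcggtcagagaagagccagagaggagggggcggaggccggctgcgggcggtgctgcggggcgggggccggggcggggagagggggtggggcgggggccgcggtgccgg
Trip6: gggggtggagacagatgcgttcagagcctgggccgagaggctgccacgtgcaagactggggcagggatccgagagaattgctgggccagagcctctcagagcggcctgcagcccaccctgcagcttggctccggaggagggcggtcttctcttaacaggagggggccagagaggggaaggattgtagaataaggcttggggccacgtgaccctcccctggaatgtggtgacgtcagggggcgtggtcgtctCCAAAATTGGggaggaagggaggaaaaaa
The Vcl promoter lies at chr14:20929148-20929427 on the plus strand, and its box begins 227 bases before the start. That of Fermt2 is at chr14:45530036-45530315 on the minus strand, with the box beginning 204 bases before the start, and that of Trip6 at chr5:137314212-137314491 on the minus strand, with the box 1 base after the start. The differences between old and young VSMCs in the 6 genes ran from -0.15 in Fhl2 to 0.33 in Vcl, with a median of 0.13. Fhl1, at -0.10, was also below 0 and the rest were above it. The median of the 24 members without a match was -0.05, and the contrast between these medians was not tested. None of the 6 had an unadjusted p under 0.05 over all arrays.

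Other genes of adhesion plaques, LIM families and actin regulation ranged more widely than the members, from -1.23 to 1.36. Of 65 listed, 60 were measured, and this list too was chosen with earlier results of these data known. At the threshold of the methods 1 was higher (Lmo7) and 1 was lower (Lmcd1), and at an unadjusted p under 0.05 6 were higher and 4 were lower, 16.7% of the 60 against 11.4% of all genes. The groups did not overlap in 11 higher and 6 lower genes, together 28.3% of the 60, against 11.1% of all genes higher and 6.95% lower. Their median difference was 0.06. Lmcd1, a LIM protein that restrains GATA factors, was at 8.79, 8.56 and 8.24 in old VSMCs and at 10.03, 9.92 and 9.33 in young VSMCs. It was 2.35-fold lower in old VSMCs (-1.23 ± 0.22, adjusted p = 0.116, limma), every old array was below every young one, and without 1 array at a time the difference ran from -1.45 to -1.09. Over the alternatives its adjusted p ran from 0.0398 to 0.423 (limma), and it was under 0.05 with array weights, at 0.0398, and with the replicate block, at 0.0444. Lmo7, which carries a LIM and a PDZ domain, was at 6.12, 6.47 and 7.61 in old VSMCs and at 5.28, 5.77 and 5.08 in young VSMCs (1.36 ± 0.36, adjusted p = 0.267). Without old replicate 3, the highest array, it was 0.92 and under the limit on size. Below the limit on size were Hspb1, a small heat shock protein that protects actin filaments, at -0.68 ± 0.15, Efs, a relative of Bcar1, at -0.66 ± 0.16, and Enah, a relative of Vasp, at 0.73 ± 0.18, with adjusted p of 0.204, 0.240 and 0.245. In all 5 genes the old and young arrays did not overlap.

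**Figure D5:**
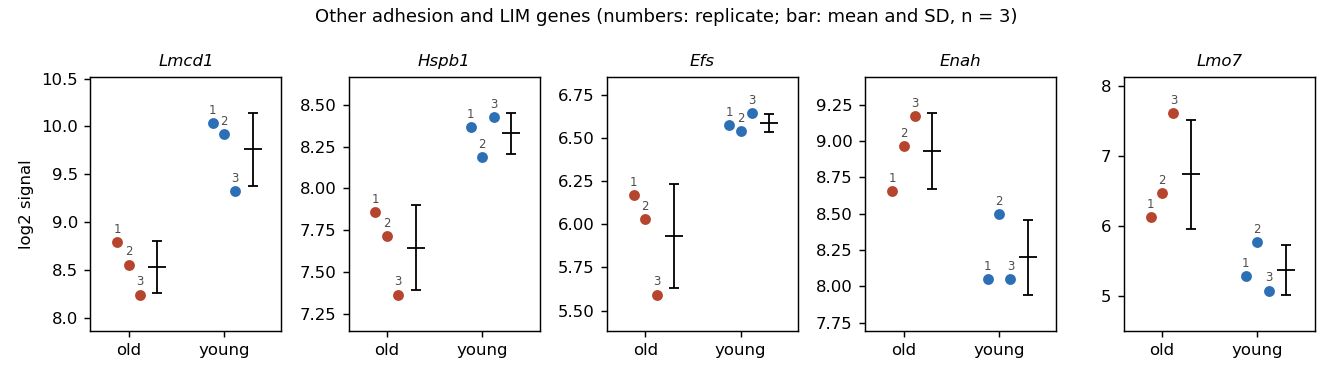
Log2 signal on each array for 5 other genes of adhesion, LIM families and actin regulation. Old VSMCs are on the left of each panel and young VSMCs on the right. Replicate numbers are beside the points, with the mean and SD (n = 3) as a bar. Old points lie below young points in Lmcd1, Hspb1 and Efs and above them in Enah and Lmo7, with old replicate 3 at 7.61 far above the others in Lmo7.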

How the data were processed

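RNA of each sample was hybridised to its own Affymetrix mouse gene array. The authors deposited log2 signals for every probe set, with background correction and quantile normalization by RMA in the oligo package according to their methods. The Transcriptome Analysis Console, with no version, is the tool in the submitters' processing notes. The array medians, 5.39 to 5.58, were not identical, as full quantile normalization of these probe sets would make them. The values were used as deposited, with a further quantile normalization as an alternative, and 0 columns were left unmapped. Of 41345 probe sets, 23521 carried 1 gene symbol, 1820 several and 16004 none in the platform annotation used. The brightest probe set by mean over the 6 arrays stood for each of 22182 genes, Ilk and Lims2 through probe sets of several symbols, with no filter on low values. Symbols of 35 members were matched to RefSeq by gene ID. Arrays give no read depth, and the number of arrays limits the precision.

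Old and young VSMCs were compared with lmFit and eBayes of limma 3.58.1 (R 4.3.3, two-sided), over all genes at once, with Benjamini-Hochberg adjustment over all of them. The threshold was that of the methods, a log2 difference over 1 with an unadjusted p under 0.05. The fit was checked on simulated independent arrays with known differences larger than any in the members. That check does not show how it handles small differences or arrays of unequal quality. The members and the other gene lists were chosen with earlier results of these data known. Every member is named. Array values are given for members with an unadjusted p under 0.05, for the largest difference in each of the 8 role groups, for Ilk and Lims2, and for those said to be named after their values were seen. Of the other adhesion genes, those past the threshold and otherwise the smallest p are named. Replicate numbers are those of the sample titles; the descriptions give the young samples the same numbers but count the old samples on from them. Same-numbered old and young samples were not paired: their deviations from the group means correlated at 0.04, 0.02 and -0.01. Alternatives were quantile normalization, centring, a filter on dim probe sets, every probe set fitted, the next probe set, array weights, a trended and robust eBayes, a replicate block, a fold limit of 1.5 and each array left out in turn. A planned count of LIM patterns in protein sequences was not run.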

Additional observations from a re-analysis of the deposited data

How the results depend on the processing

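No member passed the threshold of the methods or an adjusted p under 0.05 (limma) in any alternative run. With a fold limit of 1.5 and an unadjusted p under 0.05 none passed in the reported fit, but Sorbs2 did by its next probe set (-0.99), with array weights (-0.61) and without young replicate 3 (-0.67), Csrp2 without young replicate 1 (-0.60) and Fhl3 without young replicate 2 (0.62). Members higher at an unadjusted p under 0.05 numbered 0 after quantile normalization, with every probe set fitted and with the replicate block. Members lower numbered 5 after quantile normalization and 1 after centring. The replicate block gave 0 higher and 4 lower (Tln2, Tns1, Sorbs2 and Synpo2); the labels give these samples only a number shared in the titles, not in the descriptions, and no pairing. Leaving out 1 array at a time gave 0 to 6 higher, the 6 without young replicate 2, and 1 to 4 lower. The median over the members was 0.0566 after centring, 0.0061 with array weights and from -0.1137 to 0.1115 without 1 array. The shifts without young replicate 2 and without young replicate 3 follow from the levels of those arrays over the members. The cause of those levels and of the other shifts was not tested. With Ilk and Lims2 left out, an alternative chosen after seeing the data, the counts of calls did not change.

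Small differences changed sign in 21 members, in 58 of the values from 14 alternatives, and in no alternative for the other 16. After quantile normalization Ilk was at -0.0843, Pxn at -0.0714 and Nexn at -0.0031. After centring Parva was at 0.0566, Src at 0.0531, Actn1 at 0.0394, Flna at 0.0015, Lpp at 0.0699, Vasp at 0.0209 and Pdlim1 at 0.0196. The next probe set of Ilk gave -0.0984. With array weights Parvb was at -0.0905, Src at 0.0373, Actn4 at -0.0121, Flna at 0.0099, Zyx at 0.0061, Lpp at 0.0332, Pdlim7 at 0.0473, Fhl2 at 0.0421 and Nexn at -0.0297. Without 1 array the ranges were -0.1137 to 0.1725 in Ilk, -0.1312 to 0.0656 in Parva, -0.1838 to 0.3324 in Parvb, -0.0931 to 0.0331 in Src, -0.0800 to 0.0683 in Pxn, -0.0539 to 0.1937 in Tns3, -0.1356 to 0.0464 in Actn1, -0.1315 to 0.1851 in Actn4, -0.2104 to 0.1561 in Flna, -0.2395 to 0.1115 in Zyx and -0.1091 to 0.1689 in Lpp. They were -0.1645 to 0.0823 in Vasp, -0.2871 to 0.1831 in Pdlim1, -0.0430 to 0.0370 in Pdlim3, -0.2290 to 0.0765 in Pdlim7, -0.0310 to 0.2747 in Ldb3, -0.0322 to 0.4989 in Csrp1, -0.4820 to 0.1492 in Fhl1, -0.0910 to 0.3563 in Palld and -0.2040 to 0.2967 in Nexn.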
